A study of Homo sapiens with 14 samples.

Results

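The genes described here are 8 liver transcription factors, HNF4A, FOXA1, FOXA2, FOXA3, CEBPA, CEBPB, ONECUT1 and NR1H4. They were chosen by gene symbol, and each has a row among the 21574 rows of the deposited table of expression values. The study compared control cells, which received scrambled siRNA, with ADAR1 knockdown (KD) cells, which received siRNA against the RNA-editing enzyme ADAR1. All 14 samples are labelled as HepG2, a line from a human hepatocellular carcinoma, and the labels describe both siRNAs as stably transfected. They comprise 8 PARS-seq libraries, where RNA was cut in vitro with S1 nuclease or RNase V1 before sequencing, 2 RNA-seq libraries and 4 Ribo-seq libraries, which hold the fragments protected by ribosomes. The table gives RPKM, read counts scaled to transcript length and library depth, in 10 columns. Each PARS-seq column is the authors' mean over both nucleases for 1 replicate, with 2 columns for control and 2 for KD. RNA-seq has 1 column per condition and Ribo-seq has 2.

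Hepatocyte identity is maintained by a small network of factors that bind each other's promoters. HNF4A, a nuclear receptor, the FOXA proteins, which can open closed chromatin, and ONECUT1, a cut-homeodomain factor, act early and keep liver genes accessible. CEBPA drives the metabolic program of resting hepatocytes, its relative CEBPB is induced in the acute phase response and in regeneration, and NR1H4 (FXR) is the receptor for bile acids.

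Of the 8 factors, 3 were expressed at a mean of at least 1 RPKM over the 10 columns, CEBPB, CEBPA and FOXA1. The other 5 stayed under 1 RPKM in every column. CEBPB had the highest level, above CEBPA and above FOXA1 in 10 of 10 columns. CEBPA was above FOXA1 in 9 of 10 columns, the exception being Ribo-seq control replicate 1, so that the order of these neighbours did not hold in every library. In the KD cells FOXA1 was lower in all 5 control and KD pairs, CEBPB was higher in all 5, and CEBPA was lower in both PARS-seq pairs and higher in the RNA-seq pair and in both Ribo-seq pairs. In the main fit only the fall of FOXA1 in PARS-seq, where 15.5% of all genes were called, passed the test across all genes. It lost the call without PARS-seq control replicate 1 or without KD replicate 2. With the replicate number as a block, CEBPA and CEBPB were also called in PARS-seq, and FOXA1 over all assays. That fit called 5656 of 11153 genes in PARS-seq and rests on 2 pairs known by number only.

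**Figure D1:**
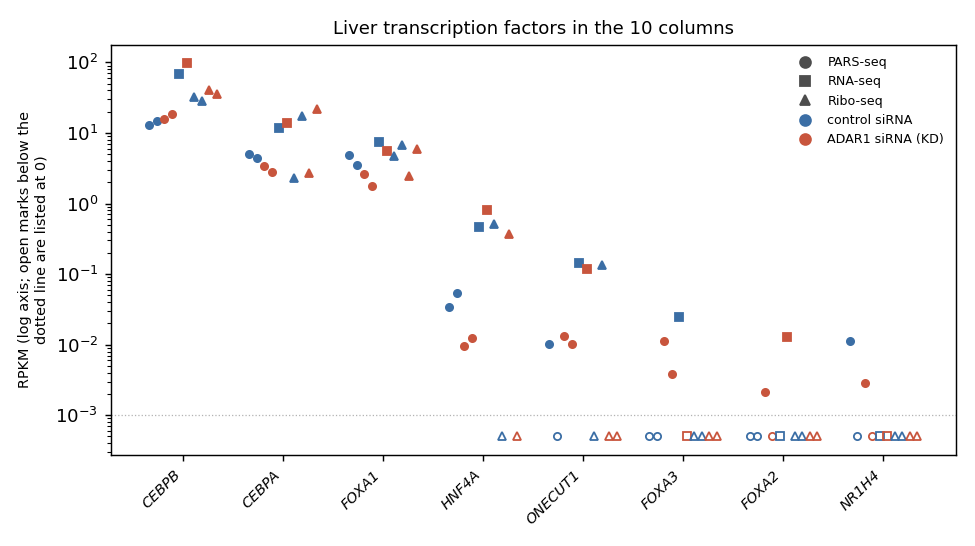
RPKM (log axis) of the 8 liver transcription factors in each of the 10 columns, with circles for PARS-seq, squares for RNA-seq and triangles for Ribo-seq, blue for control and red for KD, and open marks for values listed at 0. CEBPB, CEBPA and FOXA1 lie above 1 RPKM in every column and the other 5 below it in every column.

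The RPKM of a gene moves in steps of 1 read, which let the depth be read from the table. In the Ribo-seq columns 1 read was worth the same as at a depth of 995700 to 3322900 reads, and in RNA-seq as at 40729900 reads in control and 30209900 in KD. For the PARS-seq columns, which average 2 libraries each, the steps gave depths of about 49800000 to 90000000 reads per library. These are depths implied by the steps and not the numbers of reads sequenced. ADAR, the targeted gene, was 62.9% and 67.8% lower in the PARS-seq KD columns than in the control columns of the same number (log2 change -1.47, SE 0.17, limma adjusted p = 0.00200). It was 72.0% lower in RNA-seq and 80.0% lower in Ribo-seq replicate 1, but only 20.6% lower in Ribo-seq replicate 2, where it fell from 55.5 RPKM in control to 44 RPKM in KD. ADAR was not called in Ribo-seq (log2 change -1.26, SE 0.82) or over all assays (log2 change -1.45, SE 0.36, limma adjusted p = 0.154). A gene that was not called in these comparisons may therefore still have changed.

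The markers that define hepatocytes were at or near 0 in libraries labelled as a liver line. Of 8 hepatocyte markers, 0 had a mean of at least 1 RPKM, and their summed level ranged from 0 to 2.12 RPKM in the control columns and from 0 to 0.879 RPKM in the KD columns. ALB, which encodes serum albumin, was listed at 0 in 7 of 10 columns and reached 0.0442 RPKM at most, and FGB, a fibrinogen chain, reached 0.00436 RPKM. APOA2, an apolipoprotein, was the highest of this list with a mean of 0.418 RPKM. Among 14 markers of bile duct, immune, endothelial and stromal cells, 7 had a mean of at least 1 RPKM. Their summed level ranged from 220.4 to 790.9 RPKM in control and from 255.6 to 699.9 RPKM in KD. KRT7, a keratin of duct and other simple epithelia, had between 169 and 675 RPKM and made up most of this sum. KRT19, the other duct keratin listed, reached 10.9 RPKM in RNA-seq but at most 0.0429 RPKM in PARS-seq. Of the immune markers PTPRC did not exceed 0.0226 RPKM, CD14 reached 1.02 RPKM and CD68 had a mean of 7.58 RPKM. The endothelial markers stayed under 1 RPKM in every column, with CDH5 the highest at 0.517 RPKM. Of the stromal markers, COL3A1 and COL1A1 had means of 40.3 and 22.9 RPKM, while COL1A2 reached 0.123 RPKM. The hepatocyte markers thus go against the label of a liver line, and the levels that follow are those of libraries labelled HepG2. The part of cell identity in these results was not tested, and in bulk samples fewer cells of a type and less RNA per cell cannot be told apart.

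**Figure D2:**
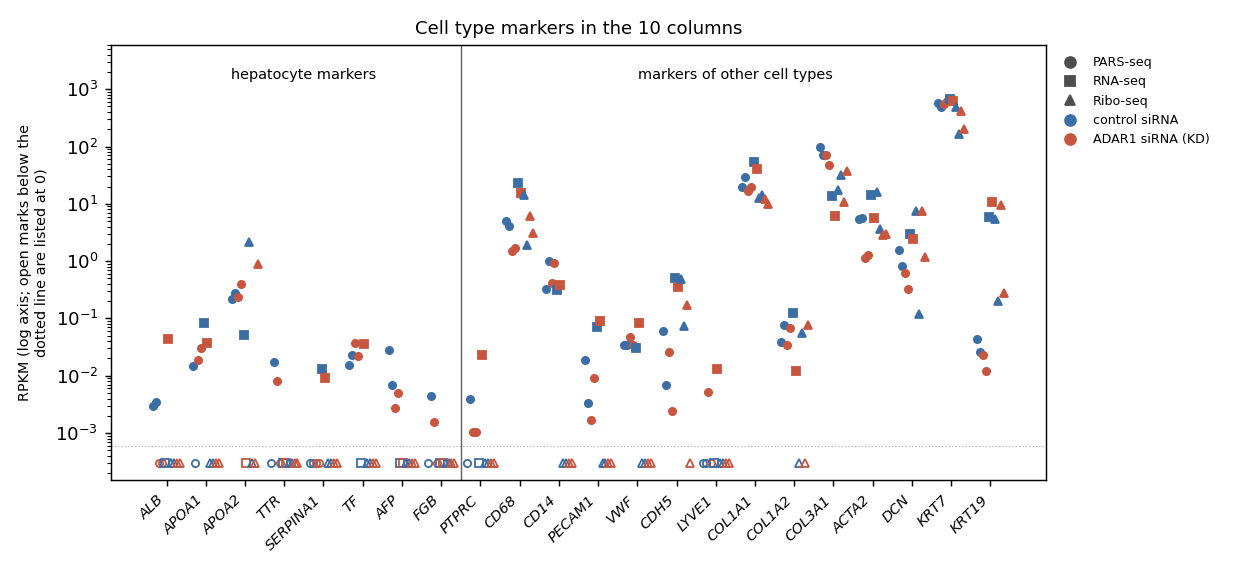
RPKM (log axis) of 8 hepatocyte markers, left, and 14 markers of other cell types, right, in the 10 columns, with shapes for the assays, blue for control, red for KD and open marks for values listed at 0. The hepatocyte markers lie at or near 0, while KRT7 lies between 169 and 675 RPKM.

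The columns also differed between libraries in a way that the conditions do not describe. In all, 25 rows had at least 2 RPKM in each column of RNA-seq and Ribo-seq replicate 1 and under 0.3 RPKM in each column of PARS-seq and Ribo-seq replicate 2, and 9 rows had the opposite pattern. TUBB, a tubulin gene, was among the 25, with 726 to 951 RPKM in the former and a listed value of 0 in the latter. Because a gene used by every cell was listed at 0, a 0 in this table may be a failed estimate, and such values are called listed at 0. Values of the factors are therefore given for each column.

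The 3 factors with reads in every column are encoded on chromosomes 20, 19 and 14 (hg19, GENCODE genes). CEBPB lies at chr20:48807367-48809205 on the plus strand and CEBPA at chr19:33790840-33793440 on the minus strand, each with 1 exon, and FOXA1 at chr14:38058757-38065264 on the minus strand, with 2 exons in its canonical transcript. Exons of annotated genes on the opposite strand overlap the exons of CEBPA and CEBPB, in the latter case those of CEBPB-AS1. The counting command that the paper prints sets no strand option, so that reads of these genes and of their antisense partners cannot be told apart.

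Promoter sequences of 7 of the 8 factors were found in RefSeq tables of GRCh38.p14. The 30 bases before the annotated start are shown for the 3 expressed factors and for FOXA3, which was almost without reads, to set the promoters of measured and unmeasured factors side by side. Capitals mark the motif TATAAA, and for CEBPB the later of both annotated starts is shown.
CEBPB, chr20:50190800-50190829, plus strand: tTATAAAtaaccgggctcaggagaaacttt
CEBPA, chr19:33302535-33302564, minus strand: TATAAAagctgggccggcgcgggccgggcc
FOXA1, chr14:37595250-37595279, minus strand: tccacatcagctcaactgcacttgcctcgc
FOXA3, chr19:45864296-45864325, plus strand: TATAAAgcgtggccgcctcccgcggcgctc
The motif was thus present next to the start of CEBPA, of FOXA3 and, at the later start only, of CEBPB, whose earlier start had no TATAAA and 25 CG dinucleotides in the 250 bases before it. The 250 bases before the starts of FOXA1, of ONECUT1, of NR1H4 and of HNF4A, at both of its starts, did not hold it. It was searched on both strands of the 250 bases before the start, where 10.7% of all promoters in the table hold it. The same 250 bases held 41 CG dinucleotides for CEBPA, 38 for CEBPB at the later start, 26 for FOXA1, 28 for FOXA3 and 37 for ONECUT1, against a median of 11 over all promoters. They held 8 at each of the HNF4A starts and 2 for NR1H4. High CG counts therefore occurred both in factors with a mean of at least 1 RPKM and in factors under it.

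FOXA1, a pioneer factor, was in the main fit the only one of the 3 tested factors called in PARS-seq. Its level was 4.91 and 3.47 RPKM in the PARS-seq control columns and 2.58 and 1.78 RPKM in the KD columns, from about 608 to 2055 reads. Both KD columns lay below both control columns. The share of all genes with such a separation was not counted, for FOXA1 or for the other factors. An exact permutation test of 2 against 2 columns cannot go below p = 0.333. The log2 change of RPKM + 1 was -0.70 (SE 0.19, limma, adjusted p = 0.0408 over 11153 genes). In this comparison 15.5% of all genes tested were called, with 7.43% lower and 8.06% higher in KD, so that a call in PARS-seq was common among all genes. The call was lost without PARS-seq control replicate 1 (limma adjusted p = 0.105), without KD replicate 2 (limma adjusted p = 0.139) and with no filter on low values (limma adjusted p = 0.179).

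In RNA-seq, FOXA1 had 7.37 RPKM in control and 5.46 RPKM in KD, from 884 and 486 reads. The ratio of KD to control was 0.741, with a 95% counting interval of 0.662 to 0.829, which compares 2 libraries and not the conditions. In Ribo-seq the levels were 4.77 RPKM in control and 2.42 RPKM in KD of replicate 1, from 14 and 10 reads, and 6.84 and 5.93 RPKM in replicate 2, from 67 and 42 reads. The ratio of KD to control had an interval of 0.201 to 1.23 in replicate 1 and of 0.574 to 1.29 in replicate 2. Both intervals included 1, and limma did not call FOXA1 in ribosome-protected fragments (log2 change -0.47, SE 0.51, adjusted p = 1.00). The part of depth and of differences between replicates in this was not tested. Over all assays, with 5 columns against 5, the log2 change was -0.54 (SE 0.22, limma adjusted p = 0.390). With the replicate number as a block it passed (limma adjusted p = 0.0400). The log2 change was -0.56 in RNA-seq and Ribo-seq replicate 1 alone and -0.53 in PARS-seq and Ribo-seq replicate 2 alone.

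CEBPA, the factor of the quiescent hepatocyte, did not move in 1 direction. Its level was 5.08 and 4.37 RPKM in the PARS-seq control columns and 3.38 and 2.83 RPKM in the KD columns, from about 847 to 1867 reads. The KD columns again lay below the control columns, by 33.4% and 35.3% in the same-numbered pairs, and the log2 change was -0.48 (SE 0.15), which did not pass the test (limma adjusted p = 0.0667). Without PARS-seq control replicate 2 the log2 change was -0.57. With the replicate number as a block the change passed (limma adjusted p = 1.09e-05). In RNA-seq the levels were 11.8 RPKM in control and 14.1 RPKM in KD, from 1245 and 1100 reads, and the ratio of KD to control was 1.19 with an interval of 1.10 to 1.29. The 2 libraries thus differed beyond counting error, in the direction opposite to that of PARS-seq.

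The Ribo-seq replicates of CEBPA differed more from each other than the conditions did. Replicate 1 had 2.33 RPKM in control and 2.75 RPKM in KD, from 6 and 10 reads, while replicate 2 had 17.7 and 22.0 RPKM, from 152 and 137 reads. The counting intervals of the control levels, 0.853 to 5.06 RPKM and 15.0 to 20.7 RPKM, did not overlap. Replicate 2 was 7.59 times replicate 1 in control and 8.00 times in KD, ratios above those of 98.1% and 98.4% of genes, where the medians were 0.812 and 0.920. Within each replicate KD was above control by a ratio of 1.18 and 1.25, each with an interval that included 1. The log2 change in Ribo-seq was 0.24 with an SE of 1.18 (limma adjusted p = 1.00).

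CEBPB, the acute phase factor, was the most abundant of the 8 and higher in KD in every pair. Its level was 12.8 and 14.7 RPKM in the PARS-seq control columns and 15.9 and 18.7 RPKM in the KD columns. The lower KD column lay just above the higher control column, and the log2 change of 0.31 (SE 0.17) did not pass the test (limma adjusted p = 0.247). With the replicate number as a block the change passed (limma adjusted p = 0.0203). In RNA-seq it had 67.5 RPKM in control and 97.1 RPKM in KD, from 5799 and 6182 reads, and the ratio of 1.44 had an interval of 1.39 to 1.49. Ribo-seq replicate 1 gave 32.4 RPKM in control and 40.9 RPKM in KD, and replicate 2 gave 28.7 and 35.7 RPKM. The ratio of KD to control was 1.26 in replicate 1 (interval 0.930 to 1.72) and 1.24 in replicate 2 (interval 1.01 to 1.53). Over all assays the log2 change was 0.35 (SE 0.14, limma adjusted p = 0.374).

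A steady direction across pairs was not rare in these columns. Of 11370 genes with a mean of at least 1 RPKM, 14.1% were higher in KD in all 5 pairs, as CEBPB was, and 9.35% were lower in all 5, as FOXA1 was. Over all assays, limma called 2 genes, C1QTNF6 and EMP2, or 0.0176% of those tested, and neither of them is one of the 8 factors. In Ribo-seq it called 0 of 10882 genes (0%), with 43 at an unadjusted p under 0.05. In RNA-seq, where there was no replicate, 1.73% of 10946 genes lay past 2-fold on the scale of log2 RPKM + 1, and 0 of the 3 factors did. The median change over all genes was 0.04 in PARS-seq, 0.08 in Ribo-seq, and -0.01 in RNA-seq on the log2 scale.

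**Figure D3:**
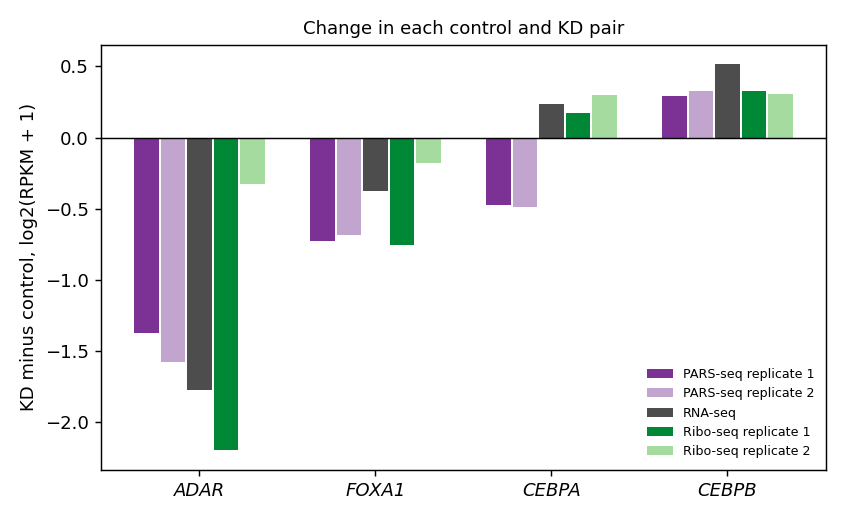
KD minus control on the scale of log2(RPKM + 1) for ADAR, FOXA1, CEBPA and CEBPB, with 1 bar for each same-numbered control and KD pair of an assay and no error bars, since each bar is a single pair. FOXA1 lies below 0 and CEBPB above 0 in 5 of 5 pairs, and CEBPA changes side between PARS-seq and the other assays.

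The ratio of the assays also set the 3 factors apart. The PARS-seq level of CEBPB was 0.189 and 0.218 times its RNA-seq level in control and 0.164 and 0.193 times in KD, where the medians over 10931 genes in control and 10894 in KD lay between 0.833 and 0.866. CEBPA had 0.430 and 0.370 in its control columns, and its KD columns had 0.240 and 0.201. FOXA1 lay nearer to the median, with 0.667 and 0.471 for the control columns and 0.472 and 0.327 for KD. All 3 were thus below the median of all genes in every column.

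The Ribo-seq level over the RNA-seq level, a measure of translational efficiency, was similar between replicates for CEBPB only. The control values were 0.480 and 0.425 and the KD values 0.421 and 0.368, below the medians over all genes of 0.593 to 0.683. For FOXA1 it was 0.648 in replicate 1 and 0.929 in replicate 2 of control, and 0.443 and 1.09 in KD. For CEBPA replicate 1 had 0.197 in control and 0.196 in KD, and replicate 2 had 1.5 and 1.56, on either side of the medians. With size factors, which shift the ratios of all genes in a column alike, the log2 ratio averaged over replicates was -0.68 in place of -1.15 for CEBPB and 0.10 in place of -0.37 for FOXA1 in control. Its sign therefore carries no meaning by itself. With a single RNA-seq library per condition, no test of these ratios between conditions was made.

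**Figure D4:**
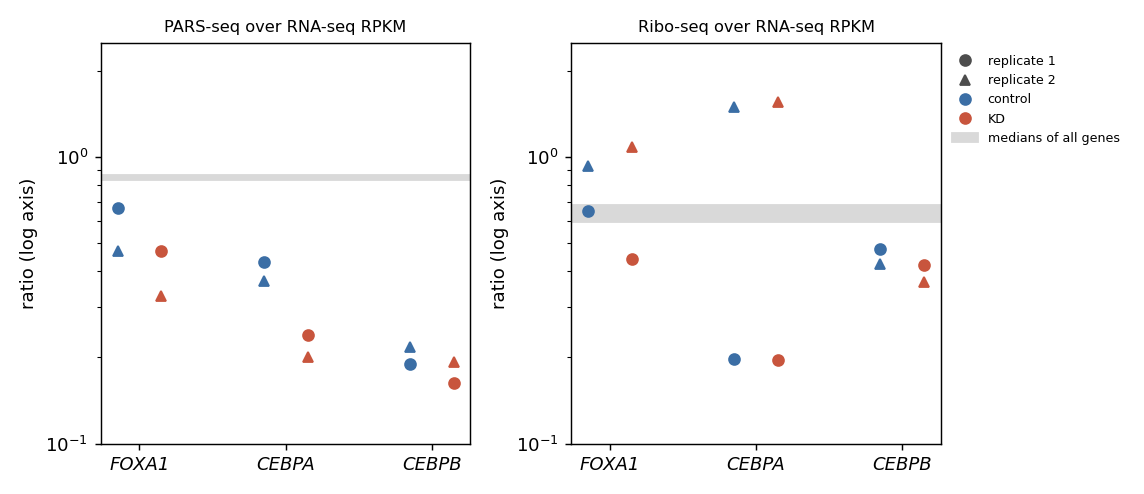
Ratio of the PARS-seq level (left) and of the Ribo-seq level (right) to the RNA-seq level of the same condition, on log axes, for FOXA1, CEBPA and CEBPB, with circles for replicate 1, triangles for replicate 2, blue for control, red for KD and a grey band for the range of medians over all genes. CEBPA has Ribo-seq ratios near 0.197 in replicate 1 and 1.5 in replicate 2.

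HNF4A (chr20:42984339-43061485, plus strand, 10 exons) shares its row with the microRNA gene MIR3646. It had 0.462 RPKM in RNA-seq control and 0.803 RPKM in KD, from 73 and 94 reads, with a ratio of KD to control of 1.74 (interval 1.26 to 2.39) between these 2 libraries. In PARS-seq it had 0.0343 and 0.0541 RPKM in control, from about 19 and 28 reads, and 0.00959 and 0.0123 RPKM in KD, from about 6 reads each. The KD columns lay below the control columns in PARS-seq, whereas in RNA-seq KD was higher. Ribo-seq replicate 1 had 0.518 RPKM in control and 0.367 RPKM in KD, each from 2 reads, and replicate 2 was listed at 0 in both. The 2 reads in control of replicate 1 gave an interval of 0.0627 to 1.87 RPKM. If the 0 of replicate 2 stands for 0 counted reads, it allows up to 0.233 RPKM in control and 0.322 RPKM in KD (3 reads per library), but it may be a failed estimate, so that the Ribo-seq replicates of HNF4A were not compared. HNF4A was under the filter of the test in each comparison.

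The lower counting bounds of HNF4A in RNA-seq, 0.362 and 0.649 RPKM, were above each PARS-seq value, which covers counting error only, with 1 RNA-seq library per condition. KRT19, a keratin of bile duct cells, also had higher values in RNA-seq than in PARS-seq, with 5.91 and 10.9 RPKM in RNA-seq, 5.46 and 9.68 RPKM in Ribo-seq replicate 1, 0.205 and 0.283 RPKM in Ribo-seq replicate 2 and at most 0.0429 RPKM in PARS-seq. The part of this difference between libraries in the values of HNF4A was not tested.

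**Figure D5:**
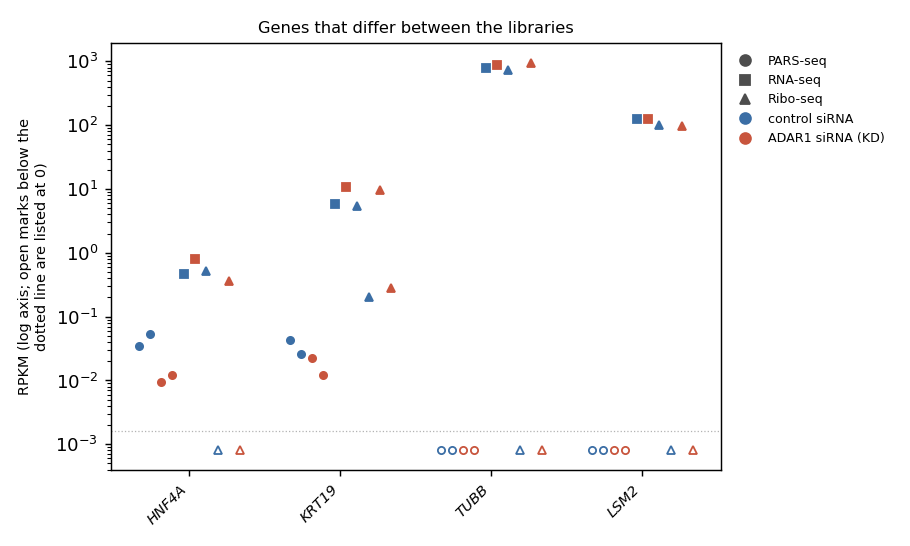
RPKM (log axis) of HNF4A, KRT19, TUBB and LSM2 in the 10 columns, with shapes for the assays, blue for control, red for KD and open marks for values listed at 0. TUBB lies at 726 RPKM or more in RNA-seq and Ribo-seq replicate 1 and is listed at 0 in the other columns.

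ONECUT1, FOXA2, FOXA3 and NR1H4 were almost without reads. ONECUT1 (chr15:53047250-53083275, minus strand) had 0.144 RPKM in RNA-seq control and 0.120 RPKM in KD, from 13 and 8 reads, 1 read in Ribo-seq control replicate 2, and at most 0.0134 RPKM in PARS-seq. FOXA3 (chr19:46367247-46377055, plus strand) had 0.0247 RPKM in RNA-seq control, from about 2 reads, and was listed at 0 in 7 of 10 columns. FOXA2 (chr20:22561636-22566093, minus strand) had 0.0127 RPKM in RNA-seq KD, from about 1 read, and was listed at 0 in 8 of 10 columns. NR1H4 (chr12:100867486-100958192, plus strand) was listed at 0 in each RNA-seq and Ribo-seq column and reached 0.0112 RPKM in PARS-seq. If the listed 0 of NR1H4 stands for 0 counted reads, it allows up to 0.0269 RPKM in RNA-seq control and up to 1.10 RPKM in Ribo-seq control replicate 1, and if it is a failed estimate it sets no limit. No comparison of conditions was made for these 4 factors.

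Most of the genes that these factors are known to activate also had values at or near 0, many of them listed at 0, which may be failed estimates. Of 6 targets of HNF4A, 7 of the FOXA factors and 8 measured targets of NR1H4, 0 had a mean of at least 1 RPKM. The highest mean of each list was that of APOA2, of IGFBP1 (0.825 RPKM), a binding protein of insulin-like growth factors, and of ABCB11 (0.0319 RPKM), the bile salt export pump. APOB, the main protein of very low density lipoprotein, G6PC, the last enzyme of glucose release, and KNG1 were each listed at 0 in 8 of 10 columns. Of 6 targets of the CEBP factors, 1 did, the complement gene C3, with a mean of 14.9 RPKM, while SERPINA1, which encodes alpha-1 antitrypsin, was listed at 0 in 8 of 10 columns. C3 had 20.5 RPKM in RNA-seq control and 44.1 RPKM in KD, and 17.3 and 36.7 RPKM in Ribo-seq replicate 1, but 0.177 and 0.245 RPKM in replicate 2. In PARS-seq its log2 change was 0.04 (SE 0.17, limma adjusted p = 0.903).

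Other factors of the hepatic network were expressed. Of 32 listed, 22 had a mean of at least 1 RPKM. The highest by mean was NR2F6, an orphan nuclear receptor, with 65.6 RPKM. In Ribo-seq replicate 1 CEBPD was above it, with 25.7 RPKM in control and 26.2 RPKM in KD against 18.4 and 18.9 RPKM. RXRB was listed at 0 in 10 of 10 columns, which may be a failed estimate and gives it no rank. In PARS-seq 19 were tested, of which 6 rose, 1 fell and 12 did not pass the test, where 8.06% of all genes tested rose and 7.43% fell, with a median log2 change of 0.26 against 0.04 over all genes. NR2F6 rose by 0.67 on the log2 scale (SE 0.19, limma adjusted p = 0.0469). Chosen after their values were seen, CEBPG, a dimer partner of CEBPA and CEBPB, rose by 0.95 (SE 0.16, limma adjusted p = 0.00738), and TBX3, a repressor, fell by 0.59 (SE 0.16, limma adjusted p = 0.0427). In Ribo-seq 0 of 22 and over all assays 0 of 22 were called, and the median change in Ribo-seq was -0.12 against 0.08 over all genes, with -0.35 (SE 0.94) for NR2F6.

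Of 10 coregulators, which link such factors to chromatin, all 10 had a mean of at least 1 RPKM. In PARS-seq 2 rose, 1 fell and 7 did not pass the test, so that 3 of 10 were called where 15.5% of all genes were. PPARGC1B, a coactivator and the lowest of the list by level, rose by 0.66 on the log2 scale (SE 0.13, limma adjusted p = 0.0131). NCOA3, a coactivator named after its value was seen, fell by 0.50 (SE 0.14, limma adjusted p = 0.0465). In Ribo-seq and over all assays 0 of 10 were called.

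Among the markers of other cell types, 5 were tested in PARS-seq, of which 2 fell, where 7.43% of all genes fell and 15.5% were called in either direction. In Ribo-seq and over all assays 0 of 7 were called. Those named here were chosen after their values were seen. ACTA2, smooth muscle actin, fell by 1.56 on the log2 scale (limma adjusted p = 0.000574), and CD68, a lysosomal protein of macrophages, by 1.09 (limma adjusted p = 0.00390). In RNA-seq, with no replicate, 2 of 7 lay past 2-fold, against 1.73% of all genes, ACTA2 with a log2 change of -1.23 and the collagen gene COL3A1 with -1.05. The falls in PARS-seq went with that of FOXA1 in the same columns, and their part in it was not tested.

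Genes whose pattern was among the 3 most like that of each expressed factor were found by Pearson's correlation of log2(RPKM + 1) over the 10 columns among 11370 genes. For FOXA1 they included KCTD20 (r = 0.98) and ARL2BP (r = 0.96). For CEBPA they were H1FX-AS1 (r = 0.97), ZNF503-AS2 (r = 0.96) and CHD3 (r = 0.95), the latter in a row shared with SCARNA21. For CEBPB they were PDLIM7, SEMA4B and ZYX, each at r = 0.99. The columns share an assay or a library preparation, so that these values describe the likeness across assays as much as across conditions.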

How the data were processed

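PARS-seq, RNA-seq and Ribo-seq were measured in control and ADAR1 KD cells labelled HepG2. The authors aligned reads to hg19 with bowtie2 in local mode, kept uniquely aligned reads, obtained gene coverage from RefSeq annotation with coverageBed, and deposited RPKM (for PARS-seq averaged over the S1 and V1 libraries). The submitters' processing notes also name cutadapt, and versions are not given in the sources used here. The tables of read starts per base carry transcript identifiers that no source used here pairs with the 8 factors, and were not used.

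The members and gene lists were chosen with earlier results of these data known. Groups and replicate numbers came from the sample labels and the file header. The design used the unit RPKM, so the test was limma 3.58.1 in R 4.3.3, with the trend option, on log2(RPKM + 1). Genes averaging 1 RPKM or more over the columns fitted were tested and called at a Benjamini-Hochberg adjusted p under 0.05. Comparisons were PARS-seq (2 against 2), Ribo-seq (2 against 2), all assays with the assay as a term (5 against 5), and the difference between the Ribo-seq and PARS-seq changes. An exact permutation test of 2 against 2 cannot go below p = 0.333. The p-values measure the spread between these samples.

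Depth was read from the most common step of microRNA and snoRNA genes with a RefSeq length. A factor's reads followed from the shortest transcript length that gave whole reads within 0.01 of a read (ADAR 0.0159) in the RNA-seq and Ribo-seq columns, and for FOXA2, FOXA3 and NR1H4 from the GENCODE transcript length. PARS-seq reads are approximate. Intervals are exact at 95% and, like the limit of 3 reads for a 0, cover counting error only. Named were the 8 factors, ADAR, listed genes called over all assays or highest or lowest of their list, and the 3 genes most correlated with each factor. Some genes that this rule names are not reported here. Other genes, such as the markers ALB, PTPRC, CD14, CD68 and KRT19 and the genes TUBB and LSM2, were named after their values were seen. Alternatives were a pseudocount of 0.1, no filter, size factors, the replicate number as a block and each replicate left out. Subsets of columns were added after seeing the data. Python 3.11.15 with pandas 2.3.3 and scipy 1.17.1 was used.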

Additional observations from a re-analysis of the deposited data

Results flagged for a closer look

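CEBPA was lower in KD in both PARS-seq pairs and higher in KD in both Ribo-seq pairs. The fitted difference between the Ribo-seq and the PARS-seq change was 0.72 on the log2 scale with an SE of 1.42, and it did not pass the test (limma adjusted p = 1.00). The same order of signs was seen in 7.04% of the 11370 genes with a mean of at least 1 RPKM. Ribo-seq replicate 1 rests on 6 and 10 reads, and its CEBPA level was far below that of replicate 2. Without Ribo-seq KD replicate 2 the difference was -0.59 and without Ribo-seq control replicate 1 it was -0.53. Without Ribo-seq control replicate 2 it was 1.96 and without Ribo-seq KD replicate 1 it was 2.03, and each of these fits sets an unequal number of replicates 1 and 2 against each other. A cause of the opposite signs was not tested.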

How the results depend on the processing

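In PARS-seq the number of genes called was 1728, against 546 with no filter on low values, 5656 with the replicate block, and 1171 to 2564 when a replicate was left out. In Ribo-seq it was 0, against 143 with the replicate block and 0 to 24 when a replicate was left out (24 without KD replicate 2). Over all assays it was 2, against 16 with a pseudocount of 0.1, 0 with no filter, 0 with size factors, 819 with the replicate block, 121 in RNA-seq and Ribo-seq replicate 1 alone, 142 in PARS-seq and Ribo-seq replicate 2 alone, and 0 to 302 when a replicate was left out (302 without Ribo-seq control replicate 2, 29 without Ribo-seq KD replicate 2). For the difference between the Ribo-seq and PARS-seq changes it was 0, with 207 at an unadjusted p under 0.05, against 51 with no filter, 1 with the replicate block and 0 to 0 when a replicate was left out. Past 2-fold in RNA-seq it was 189, against 375 with a pseudocount of 0.1.

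With the replicate block, same-numbered samples shared deviations (r = 0.66 in PARS-seq and 0.81 in Ribo-seq), but the labels give only a number and there are 2 pairs. With it limma called CEBPA (adjusted p = 1.09e-05) and CEBPB (adjusted p = 0.0203) in PARS-seq and FOXA1 (adjusted p = 0.0400) over all assays, and no other call of the 3 factors changed. Some changes that had not passed the test turned sign. The CEBPA change over all assays (-0.05) was 0.20 in RNA-seq and Ribo-seq replicate 1 alone and -0.50 to 0.31 when a replicate was left out. The Ribo-seq change ranged from -0.98 to 0.042 for FOXA1 and from -1.07 to 1.55 for CEBPA. The difference of changes ranged from -0.27 to 0.75 for FOXA1, from -0.59 to 2.03 for CEBPA and from -0.11 to 0.12 for CEBPB, where it was -0.0041 with a pseudocount of 0.1 and -0.045 with size factors. The causes were not tested. Where 1 replicate was left out, the lone sample was assumed to vary like the other group. Ribo-seq depth limits what can be seen of the factors, most for those with 0 to 2 reads.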
